A study of Rattus norvegicus with 12 samples.

Results

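The oxidative phosphorylation genes of the rat cornea were followed in 12 RNA-seq libraries, 3 in each of 4 groups labelled Control, SF/HA, SF/HA-HEP-PAM and Alkali-burned. Members were the protein-coding genes whose symbol starts with Mt- (encoded on the mitochondrial chromosome) or with Nduf, Uqcr, Atp5 or Cox4 to Cox8, and Sdha to Sdhd (encoded in the nucleus), which gave 104 of 30452 genes, 13 mitochondrial and 91 nuclear. The series concerns a detachable silk-based patch for the ocular surface. SF/HA and SF/HA-HEP-PAM are 2 versions of it, whose abbreviations the labels do not spell out. The labels do not say whether corneas under the patches were burned, nor give strain, age, time after injury or whether replicates came from separate animals, so the p-values reflect nothing but the scatter among these samples, which may be technical.

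Oxidative phosphorylation is carried out by 5 complexes of the inner mitochondrial membrane. Complexes I (NADH dehydrogenase), III (cytochrome bc1) and IV (cytochrome c oxidase) pass electrons to oxygen and pump protons, complex II (succinate dehydrogenase) feeds in electrons without pumping, and complex V (ATP synthase) uses the proton gradient to make ATP. Complex II is built from nuclear genes alone, while the others mix nuclear subunits with a few core subunits translated inside the mitochondrion. The mitochondrial mRNAs are cut from long transcripts of the whole chromosome, so their levels are set largely by processing and decay after a shared synthesis, whereas each nuclear gene has its own promoter.

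Many nuclear promoters of these genes are known for sites of the factor NRF1 and of ETS-family factors such as GABP. The 250 bases before the start of each gene were taken from RefSeq (build GRCr8), and 73 of 86 nuclear symbols searched were matched there. The letters GCATGCGC, a core of the NRF1 motif, were found on either strand in 11 of the 73 (15.1%), against 2.20% of all 33469 promoters. The ETS letters CCGGAAG were in 19 of the 73 (26.0%), against 7.27% of all promoters, and the hypoxia-response core ACGTG was in 21.9% against 16.6%. Promoters of 4 members are shown as examples. Ndufa11, Ndufa1 and Ndufa2, accessory subunits of complex I, were lower in SF/HA-HEP-PAM than in Alkali-burned corneas. Their calls were lost in 4, 10 and 5 of 12 fits that each left out 1 library. Each of them holds a match, while Atp5mf, another member lower there, holds none. Ndufa4l2 was the nuclear member that was higher in SF/HA-HEP-PAM than in Control. Capitals mark matches of any of the 3 motifs, and CTTCCGG is CCGGAAG read on the other strand.
Ndufa11, chr9:1637364-1637613 (+ strand): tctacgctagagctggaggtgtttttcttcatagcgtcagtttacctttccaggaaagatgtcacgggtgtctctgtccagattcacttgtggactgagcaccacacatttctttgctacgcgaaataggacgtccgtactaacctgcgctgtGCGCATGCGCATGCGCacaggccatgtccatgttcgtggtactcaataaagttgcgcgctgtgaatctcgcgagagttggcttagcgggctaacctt
Ndufa1, chrX:121293556-121293805 (- strand): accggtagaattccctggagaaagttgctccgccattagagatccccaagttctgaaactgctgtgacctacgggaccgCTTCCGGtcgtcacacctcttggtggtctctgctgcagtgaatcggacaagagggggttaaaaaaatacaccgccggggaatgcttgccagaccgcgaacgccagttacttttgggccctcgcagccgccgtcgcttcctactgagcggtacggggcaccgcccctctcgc
Ndufa2, chr18:28631885-28632134 (- strand): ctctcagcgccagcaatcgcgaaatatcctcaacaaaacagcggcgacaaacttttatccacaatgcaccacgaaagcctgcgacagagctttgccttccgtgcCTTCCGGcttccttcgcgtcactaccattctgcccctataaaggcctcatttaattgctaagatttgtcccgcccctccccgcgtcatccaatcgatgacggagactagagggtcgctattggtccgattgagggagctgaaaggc
Ndufa4l2, chr7:65241919-65242168 (+ strand): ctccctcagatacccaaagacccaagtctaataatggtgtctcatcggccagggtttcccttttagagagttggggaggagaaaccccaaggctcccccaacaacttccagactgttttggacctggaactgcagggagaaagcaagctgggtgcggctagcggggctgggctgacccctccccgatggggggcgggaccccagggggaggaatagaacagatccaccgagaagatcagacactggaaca
In Ndufa11 the capitals are 4 overlapping matches of the NRF1 letters, and in Ndufa1 and Ndufa2 each holds 1 match of the ETS letters. None of the 3 motifs is present in these bases of Ndufa4l2. A match is a description of the letters and not evidence of binding. Of the 13 members lower in SF/HA-HEP-PAM than in Alkali-burned whose promoter was matched, 5 held the ETS letters, against 11 of 51 tested members that did not pass there. The NRF1 letters were in 1 of the 13, Ndufa11, against 8 of the 51, and the hypoxia core in 2 against 12.

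Reads assigned to genes ranged from 486264 to 2117399 per library and were fewest in Control replicate 1 and SF/HA replicate 2 and most in SF/HA-HEP-PAM replicate 2. Every Alkali-burned and SF/HA-HEP-PAM library held more reads (1173159 or more) than every Control and SF/HA library (1015788 or fewer). Depth thus runs along with most group comparisons, and its part in the differences below was not tested. Markers of corneal epithelium (7 of 8 listed were in the table, with Krt12 and Krt5 detected in every library) took 3.35 to 5.82% of Control reads, with Alkali-burned at 1.78 to 2.72%, SF/HA at 2.20 to 3.27% and SF/HA-HEP-PAM at 2.77 to 3.72%. Markers of keratocytes and stroma (8 of 8) took 2.77 to 7.06%, 2.46 to 3.28%, 3.22 to 3.45% and 1.11 to 1.93% in the same order, the highest of all being Control replicate 1. Members of these lists did not all move alike. Every burned library lay below every Control library for Kera, Col1a1, Col5a1 and Angptl7 and above for Fmod, while Dcn, Lum and Aldh1a3 overlapped. Every SF/HA-HEP-PAM library lay above every Control library for Cldn4 and below for Aldh3a1, Tkt and Aldh1a1. Krt12, Krt5 and Pax6 overlapped there. Markers of neutrophils and macrophages (12 of 12) took 0.0536 to 0.0583% of Control reads, with Alkali-burned at 0.200 to 0.725%, SF/HA at 0.224 to 1.84% and SF/HA-HEP-PAM at 0.264 to 2.04%, the top values being those of SF/HA-HEP-PAM replicate 3 and, next, SF/HA replicate 2. S100a9 had the highest FPKM of this list in each library, and the other listed markers did not all follow it. The part of these shifts in the differences below was not tested. In bulk tissue, fewer cells of a type and less of an RNA per cell cannot be told apart.

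The 2 origins took different courses across the groups. The 13 mitochondrial mRNAs took 3.40% ± 0.361 of reads in Control (SD, n = 3), with Alkali-burned at 3.45% ± 0.630, SF/HA at 5.47% ± 1.79 and SF/HA-HEP-PAM at 3.92% ± 0.775. The 91 nuclear genes took 2.47% ± 0.387, 2.39% ± 0.0333, 2.29% ± 0.357 and 1.97% ± 0.189. All 3 SF/HA-HEP-PAM libraries (1.80 to 2.18%) lay below all 3 Alkali-burned libraries (2.36 to 2.42%) in the nuclear share, while SF/HA (1.88 to 2.55%) and Control (2.04 to 2.78%) overlapped both. Reads on mitochondrial per read on nuclear members were 1.28 to 1.47 for Control, with Alkali-burned at 1.29 to 1.76, SF/HA at 1.71 to 3.99 and SF/HA-HEP-PAM at 1.73 to 2.41, so that every patch library but the replicate 3 of each patch lay above every library without a patch. With 3 samples against 3, an exact permutation test of such a value cannot give a two-sided p below 0.1.

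**Figure D1:**
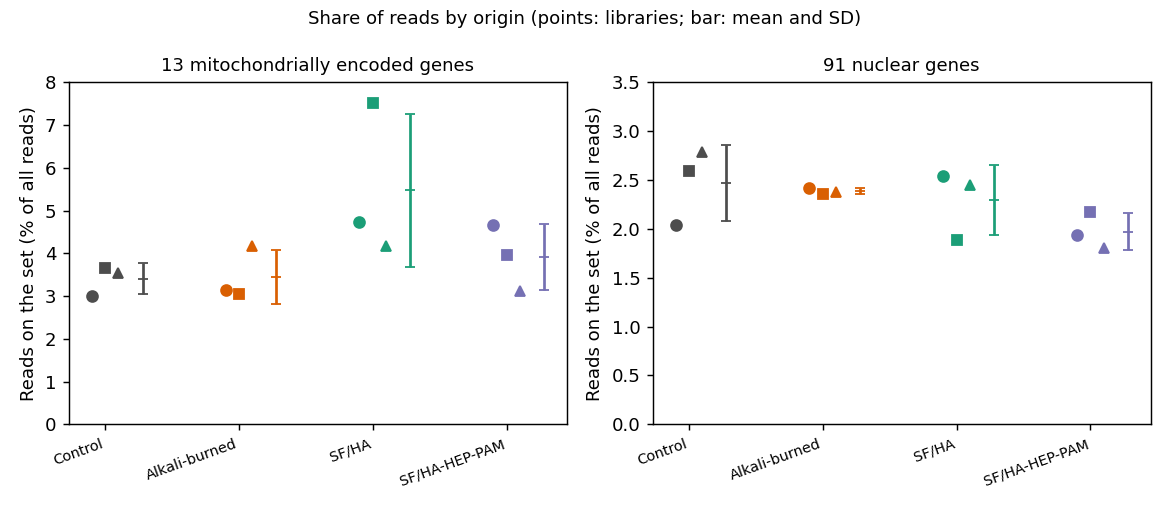
Percent of all reads on the 13 mitochondrially encoded genes (left) and the 91 nuclear genes (right), each axis starting at 0; points are libraries (circle, square and triangle for replicates 1 to 3) and bars the mean and SD of 3. SF/HA replicate 2 is the highest point at left (7.51%), and all 3 SF/HA-HEP-PAM points at right lie below the 3 Alkali-burned points.

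The single highest mitochondrial share, 7.51% in SF/HA replicate 2 (95% Wilson interval 7.44 to 7.59, counting error only), came largely with 1 gene, which alone took 3.51% of its reads. The shares of Mt-co3 (2.04%) and Mt-cyb (0.796%) were also the highest of all libraries there, by less. Mt-atp6, the proton-channel subunit of ATP synthase, read 11699, 51524 and 11441 FPKM (reads scaled to gene length and to the library's total) in SF/HA, against 6481, 8255 and 7685 in Control, 7521, 7180.3 and 13008 in Alkali-burned and 11167, 9172 and 7258 in SF/HA-HEP-PAM. The neighbouring Mt-co3, a core subunit of cytochrome c oxidase, read 25216, 26079.6 and 22175 in the SF/HA libraries and did not stand out in replicate 2. Reads on Mt-atp6 per read on Mt-co3 were 1.72 in SF/HA replicate 2 and 0.368 to 0.453 in the other libraries. Mt-atp8, a small subunit whose gene shares 43 bases with Mt-atp6, read 220.2, 835 and 220.1 in SF/HA, again highest in replicate 2. A second library stood apart in Alkali-burned, where Mt-co3 read 16040.1, 15428 and 24958 and Mt-atp6 was highest in the same replicate 3, with 4.46 reads on Mt-co3 per read on Mt-cyb, against 2.29 to 2.93 in the other libraries. None of the 6 comparisons passed for Mt-atp6 (log2 difference of SF/HA from Alkali-burned 1.10, SE 0.50, adjusted p = 0.305 in limma's test, and 0.38 without SF/HA replicate 2). Without SF/HA replicate 2 the mitochondrial share of that group was 4.45%. Leaving out Mt-atp6, Mt-atp8 and Mt-co3, the other 10 mitochondrial mRNAs took 1.63% ± 0.115 of reads in Control, with Alkali-burned at 1.34% ± 0.0152, SF/HA at 1.85% ± 0.169 and SF/HA-HEP-PAM at 1.63% ± 0.259 (SD, n = 3). On these genes the Alkali-burned libraries (1.33 to 1.36%) were the lowest, together with SF/HA-HEP-PAM replicate 3 at 1.36%.

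Mitochondrial core subunits of complex I were lower after the burn. Among the 13 mitochondrial mRNAs, 3 passed the test between Alkali-burned and Control (limma on log2(FPKM + 1), Benjamini-Hochberg adjusted p below 0.05), all lower and all of complex I, against 9.41% of all 6112 genes tested and 2.32% in the lower direction. Mt-nd2, a proton-pumping subunit of the membrane arm, read 1292, 1302 and 1157 FPKM in Control, 703, 672 and 659 in Alkali-burned, 1203, 1275 and 1228 in SF/HA and 1382, 1039 and 814 in SF/HA-HEP-PAM. The Alkali-burned libraries were the 3 lowest of the 12, close to each other and without overlap with any group. The difference from Control was -0.88 on the log2 scale (SE 0.16, adjusted p = 0.00988). Mt-nd3, which sits where the arms of complex I join, read 467, 366 and 393 in Control, 174, 225 and 203 in Alkali-burned, 387, 495 and 456 in SF/HA and 271, 216 and 187 in SF/HA-HEP-PAM. Here the burned and SF/HA-HEP-PAM libraries were low and the Control and SF/HA libraries high, with no overlap between the pairs (log2 -1.02 for Alkali-burned against Control, SE 0.17, adjusted p = 0.00681). Reads per library split the groups in the same way, the low libraries being the deeper ones, and the part of depth was not tested. Mt-nd6, the 1 member coded on the other strand of the chromosome, read 412, 309 and 267 in Control and 187, 192 and 192 in Alkali-burned (log2 -0.77, SE 0.19, adjusted p = 0.0290). Mt-nd6 shares 23 bases with Mt-nd5, and whether counting used strand is not given in the sources used here. The calls of Mt-nd2 and Mt-nd3 held with each of the 12 libraries left out in turn, and that of Mt-nd6 was lost in 5 of them, which were Control replicates 1 and 2 and each Alkali-burned replicate. In all, 7 of the 13 mitochondrial genes had no overlap between burned and Control libraries, all lower, against 29.1% of genes tested in either direction and 10% in the lower one, and the median difference of the 13 was -0.45 against 0.06 over all genes.

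**Figure D2:**
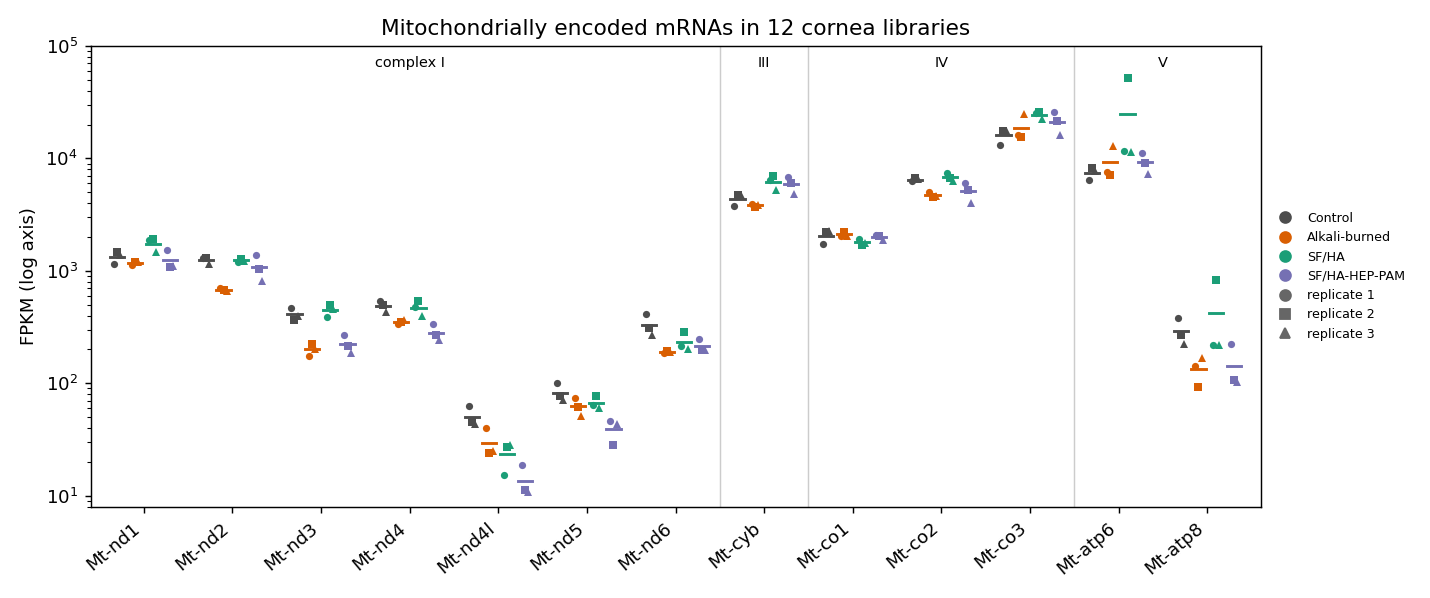
FPKM on a log axis for the 13 mitochondrially encoded genes, grouped by complex, in each of the 12 libraries; colours give the group, symbols the replicate and lines the group mean. Mt-nd2 is lowest in the 3 Alkali-burned libraries (659 to 703 FPKM), and Mt-atp6 stands apart in SF/HA replicate 2.

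In SF/HA corneas 2 of these 3 subunits, Mt-nd2 and Mt-nd3, were higher than in burned ones, as was Mt-cyb of complex III, while Mt-nd6 did not pass (log2 0.28, adjusted p = 0.492). Mt-nd2 (log2 0.86, SE 0.16, adjusted p = 0.0183), Mt-nd3 (1.15, SE 0.17, adjusted p = 0.00612) and Mt-cyb (0.69, SE 0.15, adjusted p = 0.0380) were higher in SF/HA than in Alkali-burned, against 3.34% of all genes called and 0.622% in the higher direction. This comparison shares its burned libraries with the one against Control, so the fall and the rise are not independent. Mt-cyb, the cytochrome b of complex III and its 1 mitochondrial subunit, read 3773, 4679.7 and 4680.3 FPKM in Control, 3895, 3699 and 3839 in Alkali-burned, 6476, 6961 and 5183 in SF/HA and 6827, 6062 and 4819 in SF/HA-HEP-PAM. Every patch library was above every library without a patch. The median of the 13 was 0.51 against -0.04 over all genes. None of the 13 passed between SF/HA and Control, where 6.59% of all genes did, although 6 had an unadjusted p below 0.05 (1368 of all 6112 genes did). The Mt-nd3 call held without each library in turn, and was the 1 left without Alkali-burned replicate 2 or 3 or SF/HA replicate 1 or 2. The shares of all genes passing in those fits were 1.36%, 1.35%, 1.94% and 1.44%, in that order. The Mt-cyb call was lost in 8 of the 12 (highest adjusted p 0.146), also without Control replicate 2 or 3, Alkali-burned replicate 1 or replicate 2 of SF/HA-HEP-PAM. None of the 3 calls was left when SF/HA replicate 2 and Alkali-burned replicate 3 were left out together. In that fit 18 of all 5939 genes tested passed (0.303%, against 3.34% with all libraries), so few calls of any gene were left.

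Between SF/HA-HEP-PAM and SF/HA the mitochondrial genes that passed were 2 of complex I. Mt-nd3 (log2 -0.997, SE 0.17, adjusted p = 0.00874) and Mt-nd4 (-0.74, SE 0.16, adjusted p = 0.0207), another proton-pumping subunit, were lower, against 8.85% of all genes called and 1.41% in the lower direction, and the median of the 13 was -0.51 against 0.13 over all genes. Mt-nd4 read 480.2, 535 and 394 FPKM in SF/HA and 334, 267 and 241 in SF/HA-HEP-PAM, with 539, 495 and 430.1 in Control and 336, 348 and 367 in Alkali-burned. Without SF/HA-HEP-PAM replicate 3 neither difference passed (adjusted p = 0.0502 for Mt-nd3), and that of Mt-nd4 was also lost without SF/HA-HEP-PAM replicate 2 or else SF/HA replicate 1 (highest adjusted p 0.0997). Against Alkali-burned, SF/HA-HEP-PAM had Mt-cyb (0.62, SE 0.15, adjusted p = 0.0174) and Mt-nd2 (0.64, SE 0.16, adjusted p = 0.0202) higher and Mt-nd4l (-1.08, SE 0.30, adjusted p = 0.0308) lower, 3 of 13 against 22.5% of all genes. None of the 3 was left when SF/HA-HEP-PAM replicate 2 or else Alkali-burned replicate 3 was left out, and 1 was left when it was SF/HA-HEP-PAM replicate 1 or else Alkali-burned replicate 2. The shares of all genes passing in these fits were 14.9%, 13.4%, 13.1% and 14.9%, in that order. The median of the 13 against Alkali-burned was 0.06 with all libraries and turned to -0.13 under median-of-ratios scaling, so no direction is given for the group.

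Against Control, 5 of the 7 mitochondrial genes of complex I were lower in SF/HA-HEP-PAM and none of the other 6 mitochondrial genes passed, against 21.9% of all genes called and 5.06% in the lower direction. They were Mt-nd3 (log2 -0.87), Mt-nd4 (-0.80), Mt-nd4l (-1.84, SE 0.30, adjusted p = 0.00277), Mt-nd5 (-1.06) and Mt-nd6 (-0.60). Mt-nd5, a proton-pumping subunit at the far end of the membrane arm, read 100.02, 77.1 and 70.5 FPKM in Control and 46.2, 28.4 and 43.4 in SF/HA-HEP-PAM, with no overlap, as for 38.9% of all genes in either direction. Mt-nd4l, a small membrane subunit, rested on few reads, 9, 12 and 13 in Control and 8, 7 and 4 in SF/HA-HEP-PAM, and its gene shares 7 bases with Mt-nd4. The first 4 of these calls held without each library in turn, and that of Mt-nd6 was lost in 8 of the 12 (highest adjusted p 0.138). The remaining pair, Mt-nd1 and Mt-nd2, were also on the lower side of Control in SF/HA-HEP-PAM without passing. Mt-nd1 read 1146, 1479 and 1369 in Control and 1533, 1079.6 and 1106 in SF/HA-HEP-PAM. In limma's F-test over the 4 groups 8 of 13 mitochondrial genes passed, against 26.7% of all genes and 9 of 76 nuclear members. With replicate 2 of either Alkali-burned or SF/HA-HEP-PAM left out it was 5 of the 13. The nuclear number fell to 0 with replicate 3 of either of these groups left out, to 1 without Alkali-burned replicate 2 or replicate 1 of SF/HA-HEP-PAM, to 2 without Control replicate 2 or Alkali-burned replicate 1 and to 3 without Control replicate 3 or replicate 2 of SF/HA-HEP-PAM, and rose to 16 without Control replicate 1 and 17 without SF/HA replicate 2. The share of all genes passing the F-test with a library left out was not counted. The 8 mitochondrial genes were Mt-nd2, Mt-nd3, Mt-nd4, Mt-nd4l, Mt-nd5, Mt-nd6, Mt-cyb and Mt-co2, a core subunit of cytochrome c oxidase that binds copper. Mt-co2 read 6251, 6629 and 6556 in Control, 4994, 4577 and 4654 in Alkali-burned, 7416, 6632 and 6267 in SF/HA and 6035, 5244 and 4005 in SF/HA-HEP-PAM, and no pairwise difference of it passed. Mt-co1, the catalytic subunit of the same complex, ranged only from 1685 to 2243 over the 12 libraries.

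Of the 91 nuclear members 76 reached 1 FPKM in at least 3 libraries and were tested. The 15 left out had low or no reads and included the assembly factors Ndufaf1, Ndufaf2, Ndufaf5 and Ndufaf7, the subunits Ndufa3 and Uqcrc2, and Cox7b2 and Cox8c, with 4 of the 15 lacking a read in any library. Of the symbols, 5 are carried by 2 gene IDs each, and reads of such copies may be split between them. Values per length use each gene's whole span with introns, so nuclear levels are compared only within a gene. Between Alkali-burned and Control none of the 76 passed in limma's test, against 9.41% of all genes, and voom on the recovered reads passed 1. An unadjusted p below 0.05 was found for 6 of them, against 1454 of all 6112 genes. Their median difference was 0.02 against 0.06 over all genes. Nor did any pass between SF/HA and Alkali-burned (0 of 76, 0 by voom, against 3.34% of all genes). There 5 had an unadjusted p below 0.05, against 1016 of all 6112 genes. Between SF/HA and Control it was again 0 of 76 and 0 by voom, against 6.59%, with 7 at an unadjusted p below 0.05, against 1368 of all 6112 genes.

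Nuclear subunits were lower in SF/HA-HEP-PAM. Against Alkali-burned, 14 of 76 passed, all lower, which is 18.4% of them. Over all genes 22.5% passed, 7.92% lower and 14.6% higher, so the share called was near that of all genes while the direction was not. The median difference was -0.25 against 0.04, 64 of 76 were on the lower side, and 36 had all 3 SF/HA-HEP-PAM libraries below all 3 burned libraries, against 21.3% of all genes. With a 2-fold limit added 1 of the 14 was left, against 11.1% of all genes. That limit left 5.69% of all genes in Alkali-burned and 4.56% in SF/HA against Control, 11.6% in SF/HA-HEP-PAM against Control, 2.44% in SF/HA against Alkali-burned and 4.37% in SF/HA-HEP-PAM against SF/HA. The 14 comprised 7 of 27 tested accessory subunits of complex I, 3 of 6 subunits of complex III, 3 of 15 of complex IV and 1 of 15 of complex V, and none of the 5 tested nuclear core subunits of complex I or the 4 of complex II.

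**Figure D3:**
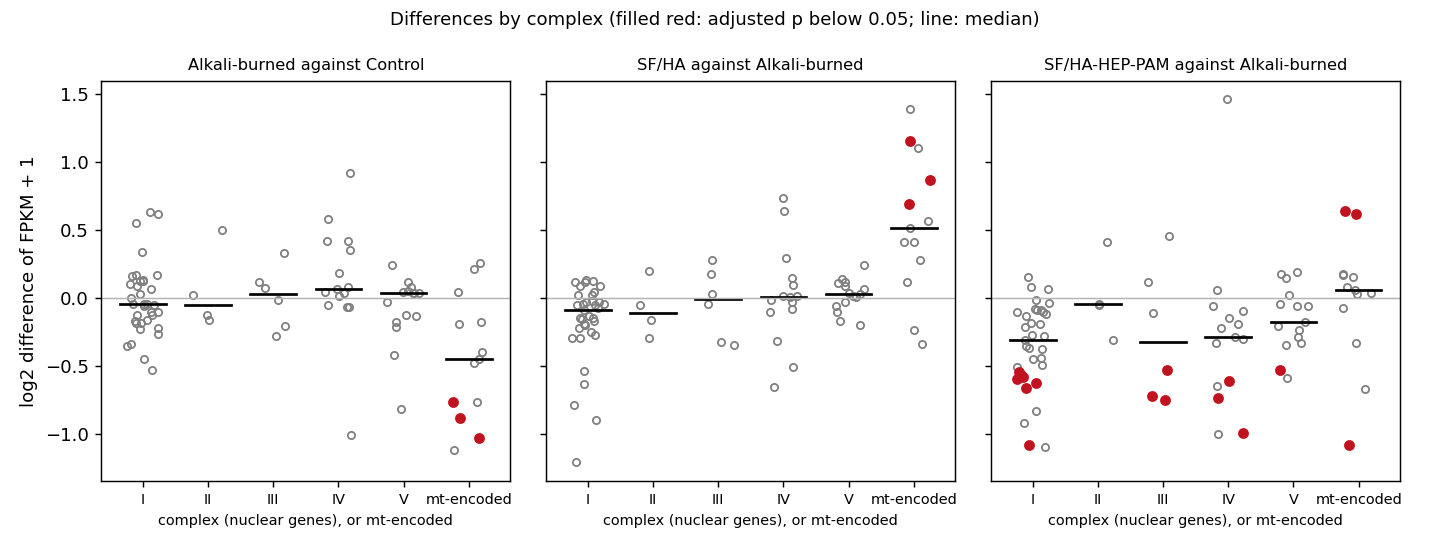
Log2 difference of FPKM + 1 (vertical axis) for each tested member in 3 comparisons; nuclear genes are placed by complex, mitochondrially encoded genes together at right, filled red points passed at an adjusted p below 0.05 and lines are medians. In the right panel 14 nuclear points are red and all lie below 0; 1 pseudogene-named member is not drawn.

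Among the 14 that passed, Ndufs5 and Cox7a2l2 had the largest differences. Ndufs5 on chromosome 5, an accessory subunit of complex I, read 21.3, 20.1 and 24.5 FPKM in Alkali-burned and 9.03, 11.53 and 9.08 in SF/HA-HEP-PAM (log2 -1.08, SE 0.27, adjusted p = 0.0174), with 14.0, 11.95 and 15.6 in Control and 15.9, 6.48 and 13.9 in SF/HA. Burned corneas were thus the highest group, above every other library. A second gene ID named Ndufs5, on chromosome 2, was also highest in the burned libraries (62.1, 56.0 and 44.9, against 29.7, 32.5 and 27.6 in SF/HA-HEP-PAM) but did not pass. Cox7a2l2, named for its likeness to the supercomplex factor Cox7a2l, read 100.4, 99.5 and 101.0 in Alkali-burned and 49.1, 57.2 and 44.6 in SF/HA-HEP-PAM (log2 -0.99, SE 0.20, adjusted p = 0.00693), and was the 1 nuclear call in this comparison kept among those named when each of the 12 libraries was left out. Cox7a2l itself read 11.46, 9.66 and 9.22 and 11.3, 10.3 and 10.1, with overlapping groups.

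Complex III had falls in Uqcr10 (log2 -0.75, SE 0.21, adjusted p = 0.0287) and Uqcrq (-0.72, SE 0.23, adjusted p = 0.0499), both small subunits around the catalytic core. Uqcr10 read 245, 267 and 295 FPKM in Alkali-burned and 148, 171 and 160.2 in SF/HA-HEP-PAM, with 247, 161 and 247 in SF/HA, whose replicate 2 lay inside the SF/HA-HEP-PAM range. In complex IV, Cox6b1, which lies at the interface of the dimer, read 43.3, 54.6 and 48.7 and 25.7, 30.9 and 30.2 (-0.74, SE 0.23, adjusted p = 0.0419), and Cox7c 264, 211 and 219 and 140.4, 187 and 129.9 (-0.61, adjusted p = 0.0294). Both pairs were without overlap. In complex I, Ndufa7 read 10.3, 8.24 and 8.56 and 5.38, 5.85 and 4.78 (-0.66, adjusted p = 0.0174), and Ndufa11, which helps hold the membrane arm together, 32.2, 32.8 and 30.6 and 17.8, 21.3 and 22.0 (-0.62, adjusted p = 0.0202). Ndufa1, the nuclear complex I member with most reads, read 127, 159.6 and 176 in Control, 129, 142 and 139 in Alkali-burned, 127, 90.4 and 127 in SF/HA and 91.5, 105 and 84.8 in SF/HA-HEP-PAM. Its SF/HA-HEP-PAM libraries lay below all Control and burned libraries and overlapped only SF/HA replicate 2 (-0.54 against Alkali-burned, adjusted p = 0.0474, and -0.70 against Control, adjusted p = 0.0163). Ndufa2 (-0.60) and Ndufb11 (-0.58) of complex I also passed, and the last 3, outside the rule for named genes and listed after their values were seen, were Ndufa13 (-0.57), Uqcrh (-0.53) and Atp5mf (-0.53).

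Most of these calls had an adjusted p above 0.01. The number passing was 1 when SF/HA-HEP-PAM replicate 1 was left out, 2 when replicate 3 of either group was, 3 and 4 for Alkali-burned replicates 1 and 2, and 9 for replicate 2 of either Control or SF/HA-HEP-PAM, while the median difference stayed between -0.28 and -0.20 over all 12 libraries left out. The tested nuclear members had a median span of 6691 bases against 8471 over all tested genes. Among the 1528 shortest genes (up to 3138 bases) the median difference was -0.58 for 15 nuclear members and -0.07 for all genes, and among the 1528 longest (18834 bases and more) -0.14 for 14 and 0.15.

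Against Control, 12 nuclear members passed in SF/HA-HEP-PAM, 11 lower and 1 higher, against 21.9% of all genes (5.06% lower). The median was -0.29 against 0.14 over all genes, a shift that median-of-ratios scaling removed from all genes (0.003) and that left the members at -0.48. Ndufb4 (log2 -0.70, adjusted p = 0.0122), an accessory subunit of complex I, read 70.7, 88.8 and 93.4 FPKM in Control and 49.7, 56.1 and 47.5 in SF/HA-HEP-PAM, and Ndufb2 on chromosome 4 read 17.0, 21.1 and 21.3 and 12.3, 13.3 and 9.82 (-0.70, adjusted p = 0.0134). Neither pair overlapped, as for 38.9% of all genes in either direction, and both calls were lost without SF/HA-HEP-PAM replicate 3 (adjusted p = 0.0510 and 0.0593). Ndufa1, Ndufa2, Ndufb11, Ndufc2, Uqcr10, Cox7a2l2 and Cox7c were also lower, with Atp5mf and Atp5mg, both outside the rule for named genes. The number passing was 1 without SF/HA-HEP-PAM replicate 3, 3 without SF/HA-HEP-PAM replicate 1 or Control replicate 3, 4 without Control replicate 2, 6 and 7 without Alkali-burned replicates 3 and 2, and 20 without SF/HA replicate 2. The shares of all genes passing in these fits were 12.5%, 14.9%, 16.0%, 16.5%, 19.3%, 19.5% and 24.3%, in the same order. Against SF/HA, Ndufa7 (-0.61, adjusted p = 0.0454) and Cox6a2 passed, 2 of 76 against 8.85% of all genes (with a library left out, 8 passed without SF/HA replicate 2, 4 without Control replicate 1, 1 without Control replicate 2, Alkali-burned replicate 1 or SF/HA replicate 1, and 0 without Control replicate 3, Alkali-burned replicate 2 or 3, SF/HA replicate 3 or replicate 1 or 3 of SF/HA-HEP-PAM), and 55 of 76 were on the lower side. With a library left out, the share of all genes passing there ranged from 1.68% (SF/HA-HEP-PAM replicate 3) to 14.2% (Control replicate 1).

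Ndufa4l2 was the 1 nuclear member that passed as higher in SF/HA-HEP-PAM than in Control. It encodes a relative of the complex IV subunit Ndufa4 known as a target of hypoxia signalling. It read 15.5, 12.2 and 12.03 FPKM in Control, 20.03, 33.1 and 25.5 in Alkali-burned, 30.3, 88.5 and 24.5 in SF/HA and 44.0, 53.9 and 158 in SF/HA-HEP-PAM. All libraries outside Control were above it, and SF/HA-HEP-PAM was above Control by 2.37 on the log2 scale (SE 0.53, adjusted p = 0.0103), a call kept with each of the 12 libraries left out, at 1.81 without replicate 3. The rise over Alkali-burned (1.46, adjusted p = 0.0720) did not pass. Its top values were in SF/HA-HEP-PAM replicate 3 and SF/HA replicate 2, the libraries in which S100a9, a calcium-binding protein abundant in neutrophils, was highest (6279 and 5395 FPKM, at most 2037 elsewhere). Of the same marker list, S100a8, Cxcr2, Itgam, Tyrobp and Cd68 were also highest of the SF/HA-HEP-PAM group in its replicate 3. Ptprc, Lyz2, Csf3r, C1qa, C1qb and Fcgr3a were not. The part of any cell type in the rise of Ndufa4l2 was not tested. Ndufa4 read 21.7, 26.1 and 29.8 in Control and 20.4, 26.2 and 20.1 in SF/HA-HEP-PAM, with overlap.

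**Figure D4:**
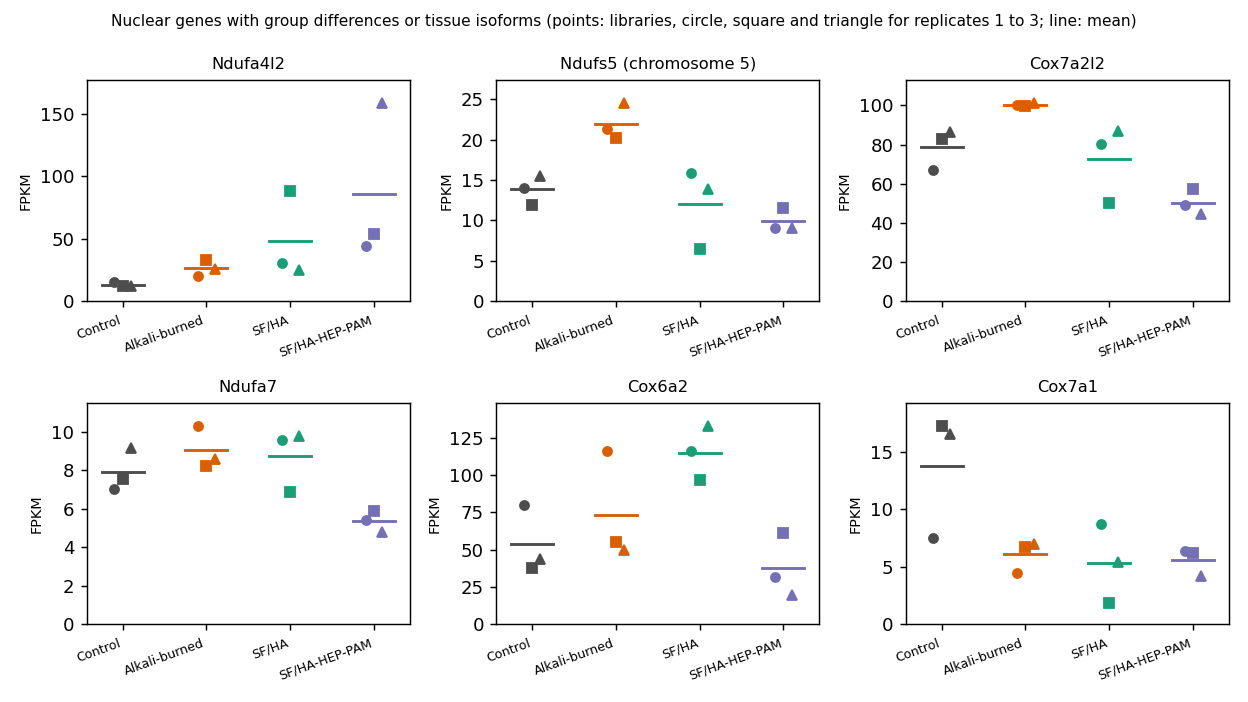
FPKM of 6 nuclear members in the 12 libraries, each axis starting at 0; points are libraries (circle, square and triangle for replicates 1 to 3) and lines group means. Ndufa4l2 is lowest in Control and spreads widely in both patch groups, and Ndufs5 and Cox7a2l2 are highest in the Alkali-burned libraries.

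Several complex IV subunits have isoforms known from heart and skeletal muscle. Cox6a2, one of these, read 79.8, 37.8 and 43.5 FPKM in Control, 116, 55.0 and 49.5 in Alkali-burned, 116, 96.6 and 133 in SF/HA and 31.8, 61.3 and 19.3 in SF/HA-HEP-PAM. The SF/HA libraries were high together and above all of SF/HA-HEP-PAM (log2 -1.73, SE 0.45, adjusted p = 0.0389, lost in 8 of 12 left-out libraries, with 0.153 without SF/HA-HEP-PAM replicate 3). Of 11 listed striated muscle markers 9 were in the table, and together they took 0.000601 to 0.00340% of reads. Tnni2, a troponin of fast muscle, was found in all 12 libraries at 2.19 to 8.25 FPKM and did not pass in any comparison, and Tnnt3 and Myh4 were found in most libraries at up to 0.449 and 0.204 FPKM. Ckm and Ckmt2 had 0 reads in every library, which allows 1.42 FPKM in the deepest to 6.17 in the shallowest library for a gene of 1 kb, and Acta1, Mb, Actn3 and Myh2 reached at most 0.265, 0.329, 0.0496 and 0.0930 FPKM. The part of muscle cells in the Cox6a2 difference was not tested. Cox7a1, the other muscle isoform tested, read 7.52, 17.2 and 16.5 in Control, 4.42, 6.74 and 7.01 in Alkali-burned, 8.67, 1.83 and 5.41 in SF/HA and 6.38, 6.19 and 4.16 in SF/HA-HEP-PAM, with Control replicate 1 apart from its group and no difference past the threshold (-1.004, adjusted p = 0.191 for Alkali-burned against Control). The ubiquitous Cox6a1, the nuclear complex IV member with most reads, read 459, 424 and 403 in Alkali-burned and 339, 411 and 302 in SF/HA-HEP-PAM, and Cox4i1 154, 143 and 145 and 111, 133 and 109. Neither passed. Cox4i2, the isoform of Cox4i1 linked to low oxygen, stayed at or below 3.31 in all libraries.

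Complex II, which has no mitochondrial subunit, showed no difference past the threshold in any comparison. Sdha, the flavoprotein that oxidises succinate, read 2.02, 2.22 and 1.57 FPKM in Control, 1.64, 1.52 and 1.69 in Alkali-burned, 2.31, 1.59 and 2.15 in SF/HA and 2.29, 2.61 and 2.55 in SF/HA-HEP-PAM. Every SF/HA-HEP-PAM library lay above every Alkali-burned one for Sdha, and 47.5% of all genes had no overlap in that comparison. Sdhb, its iron-sulphur partner, ranged from 1.83 to 3.03 over the 12 libraries and Sdhd, a membrane anchor, from 9.88 to 17.6. Sdhc, the other anchor, was higher in Alkali-burned than in Control by 0.42 to 0.64 on the log2 scale with a library left out. Its groups did not overlap there, as for 29.1% of all genes. In complex V, Atp5if1, the inhibitor that blocks reverse ATP hydrolysis and the nuclear complex V gene with most reads, read 327, 678 and 609 in Control, 339.7, 414 and 402 in Alkali-burned, 422, 331 and 359 in SF/HA and 391, 415 and 319 in SF/HA-HEP-PAM. Control replicates 2 and 3 were the highest and Control replicate 1 was at the level of the other groups, and no difference passed.

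Genes that build the complexes without being part of them were followed as a separate list. Of 20 tested assembly and coenzyme factors, 3 were lower and 1 higher in SF/HA-HEP-PAM than in Alkali-burned, against 22.5% of all genes passing (7.92% lower), with a list median of -0.09 against 0.04 over all genes. Sdhaf1, an assembly factor of complex II, was 97.6 FPKM on average in Alkali-burned, 77.1 in Control, 56.2 in SF/HA and 35.4 in SF/HA-HEP-PAM, and was lower in SF/HA-HEP-PAM than in each other group (log2 -1.44 against Alkali-burned, SE 0.16, adjusted p = 0.000242). It was the 1 list gene lower in SF/HA than in Alkali-burned (-0.78, adjusted p = 0.0227). Pet100, an assembly factor of complex IV, rose after the burn from a mean of 21.8 to 38.8 (0.81, adjusted p = 0.0304) and was 20.2 in SF/HA-HEP-PAM (-0.92 against Alkali-burned, adjusted p = 0.00875). Cox19 (-0.69) was lower and Coq7 (0.51) higher. Of 9 tested genes for mitochondrial transcription, RNA processing and biogenesis, Twnk, the helicase of mitochondrial DNA, was higher in SF/HA-HEP-PAM than in Alkali-burned (0.98, SE 0.25, adjusted p = 0.0196) at mean levels of 4.39 and 1.69 FPKM, and so was Fastk (0.51), which is known to bind Mt-nd6 RNA, 2 of 9 against 22.5% of all genes. None of the 9 passed between Alkali-burned and Control, where 9.41% of all genes did, or between SF/HA and Alkali-burned, where 3.34% did.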

How the data were processed

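RNA was measured in 12 rat cornea libraries by RNA-seq from poly(dT) primers with barcodes and molecular identifiers, per the labels' protocols. The authors deposited FPKM values for 30452 genes, made with fastp, STAR and featureCounts on build mRatBN7.2, per the submitters' processing notes (the series text names HTSeq-count). Whether duplicate molecules were collapsed, and the strand setting, are not given in the sources used here. The length used was the whole gene span with introns. In each library, multiplying FPKM by length gave whole multiples of 1 step (off by at most 2.41e-06 below 1000 reads), and so reads per gene, 486264 to 2117399 per library. Wilson intervals and the floor of 3 reads cover counting error only.

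The 6112 genes reaching 1 FPKM in 3 or more libraries entered limma 3.58.1 in R 4.3.3 on log2(FPKM + 1) with a variance trend, all 12 libraries in 1 model and Benjamini-Hochberg adjustment over all genes of each of 6 comparisons. Log2 differences of low genes understate the change. Passed means an adjusted p below 0.05, and a count with a 2-fold limit was made too. Alternatives were other pseudocounts, filters and scalings, voom, the compared libraries alone, a block by replicate number and leaving out each library; 2 more were added after the data were seen (scaling without the mitochondrial chromosome, and leaving out 2 libraries apart in Mt-atp6 or Mt-co3). Named genes were all mitochondrial members, per comparison the 10 largest differences among nuclear members that passed, the member with most reads in each complex, and fixed isoforms and inhibitors. The members and gene lists were chosen with earlier results of these data known. The fit was tested on simulated data. Python 3.11.15 with matplotlib 3.10.9 drew the figures. Promoters are from RefSeq's GRCr8, another build than the files', and gene coordinates were not taken from it.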

Additional observations from a re-analysis of the deposited data

How the results depend on the processing

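No called difference of a named member changed sign under any alternative, and calls of Mt-nd2 and Mt-nd3 for the burn, of Mt-nd3, Mt-nd4, Mt-nd4l, Mt-nd5 and Ndufa4l2 for SF/HA-HEP-PAM against Control, and of Cox7a2l2 for SF/HA-HEP-PAM against Alkali-burned held in all 12 left-out libraries and the 11 other alternatives (the 2-fold limit apart). Of 39 calls of named members, 9 held in every left-out library. The number of members passing moved more, and the cause was not tested. For nuclear members of SF/HA-HEP-PAM against Alkali-burned (14), it was 7 without a filter, 22 under median-of-ratios scaling and voom, 23 with only the compared libraries, 7 without the 2 libraries apart in Mt-atp6 or Mt-co3 (SF/HA replicate 2 and Alkali-burned replicate 3), 1 with a 2-fold limit and 1 to 20 with a library left out. Against Control (12) it was 6 without a filter, 23 under median-of-ratios scaling, 29 under quantile normalization, 3 with only the compared libraries, 1 with the limit and 1 to 20. Against SF/HA (2) it was 1 with a pseudocount of 0.1, 0 without a filter or with only the compared libraries, 7 under median-of-ratios scaling and under quantile normalization, 5 under scaling without Mt- rows or without the mitochondrial chromosome or without the 2 libraries apart, 1 with the 2-fold limit and 0 to 8. For Alkali-burned against Control (0) it was 2 under quantile normalization, 1 with at least 5 FPKM, median-of-ratios scaling, voom or scaling without the mitochondrial chromosome, and 0 to 1. SF/HA against Alkali-burned (0) gave 1 with at least 5 FPKM and 0 to 1, and against Control (0) 1 under quantile normalization and 0 to 2. The nuclear F-test count (9) was 0 without a filter, 15 with at least 5 FPKM, 19 under median-of-ratios scaling, 21 under quantile normalization, 14 under scaling without the mitochondrial chromosome, 16 by voom and 0 to 17. The share of all genes passing moved with the setting too. For SF/HA-HEP-PAM against Alkali-burned (22.5%) it was 8.10% without a filter, 22.9% under median-of-ratios scaling and 32.2% by voom. With only the compared libraries it was 27.7%, and with a library left out 12.4 to 28.3%. Against Control (21.9%) it was 7.52%, 20.4%, 24.4%, 15.0% and 12.5 to 24.3% in the same order. Against SF/HA (8.85%) it was 3.26%, 8.25%, 12.7%, 3.80% and 1.68 to 14.2%.

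For mitochondrial members, Alkali-burned against Control (3) gave 1 with the 2-fold limit and 2 to 4 with a library left out. SF/HA against Alkali-burned (3) gave 1 without a filter, under quantile normalization or with the limit, 0 without the 2 libraries apart and 1 to 4. SF/HA-HEP-PAM against Alkali-burned (3) gave 0 without the 2 libraries, 1 with the limit and 0 to 4. Against SF/HA (2) it gave 5 under median-of-ratios scaling, 1 under quantile normalization, with only the compared libraries or without the 2 libraries, 0 with the limit and 0 to 3. Against Control (5) it gave 8 under quantile normalization, 2 with the limit and 4 to 7. SF/HA against Control (0) gave 1 with at least 5 FPKM or quantile normalization and 0 throughout with a library left out. The F-test count (8) was 4 without a filter or without the 2 libraries and 5 to 8. Over all genes, the share passing for SF/HA against Alkali-burned was 0.750% without a filter and 2.70% under quantile normalization. It was 0.303% without the 2 libraries and 1.35 to 4.91% with a library left out. For Alkali-burned against Control the last range was 4.82 to 12.3%, and for SF/HA against Control 3.65 to 9.96%. Relative to the median of all genes, the nuclear median of SF/HA-HEP-PAM against Alkali-burned stayed between -0.41 and -0.20, and the mitochondrial median of Alkali-burned against Control between -0.59 and -0.45, over the alternatives.

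With the replicate number as a block, nuclear counts were 8 for SF/HA-HEP-PAM against Alkali-burned, 6 against Control, 1 against SF/HA and 0 in the F-test, and no mitochondrial count moved by more than 1.5 times. The shares of all genes passing for SF/HA-HEP-PAM were then 20.9% against Alkali-burned, 20.3% against Control and 6.59% against SF/HA. Deviations of same-numbered samples correlated between -0.0935 and 0.155, and 6 of 12 libraries correlated best with their own number. With so few samples such correlations cannot decide whether same-numbered samples were paired or shared a batch, and the labels give no more than the number. At 486264 to 2117399 reads, genes such as Mt-nd4l, with 3 to 14 reads per library, are measured coarsely.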

Other observations

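Glycolysis genes were higher in SF/HA-HEP-PAM than in Control. Of 12 tested, 6 passed higher and 1 lower, with a list median of 0.72 against 0.14 over all genes and 21.9% of all genes called. Pkm (log2 1.41, SE 0.22, adjusted p = 0.00220 in limma's test), the last kinase of glycolysis, rose from a mean of 13.6 to 39.3 FPKM, and Eno1 (1.27), the glucose transporter Slc2a1 (0.94), Pgam1 (0.95), Gapdh (0.75) and Ldha (0.49) rose as well. Ldhb, the lactate dehydrogenase subunit that favours lactate use, fell from 17.5 to 5.19 (-1.56, SE 0.32, adjusted p = 0.00791). Between Alkali-burned and Control, Pkm (0.94) and Gapdh (1.19) of the 12 passed, against 9.41% of all genes. Slc2a1 (1.33) alone passed between SF/HA-HEP-PAM and Alkali-burned, against 22.5% of all genes. Between SF/HA and Control, Pkm (1.09) was higher and Ldhb (-1.28) lower, against 6.59% of all genes called. None of the 12 passed between SF/HA and Alkali-burned (limma), where 3.34% of all genes did, or between the patches, where 8.85% did.

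Citric acid cycle genes and mitochondrial carriers were called at 0 to 2 genes per comparison, against 9.41% of all genes between Alkali-burned and Control, 22.5% between SF/HA-HEP-PAM and Alkali-burned and 21.9% between SF/HA-HEP-PAM and Control. Of 14 tested genes of the cycle and pyruvate entry, Idh2, an isocitrate dehydrogenase, was higher in Alkali-burned than in Control (0.59), and Cs, the citrate synthase, was higher (0.47) and Idh2 lower (-0.49) in SF/HA-HEP-PAM than in Alkali-burned, both at means of at most 2.11 FPKM. Of 11 carriers, porins and uncouplers, Ckmt1, a mitochondrial creatine kinase, had a mean of 23.5 FPKM in SF/HA-HEP-PAM, 9.32 in Alkali-burned and 4.53 in Control (log2 2.34 against Control, SE 0.38, adjusted p = 0.00264, and 1.26 against Alkali-burned, adjusted p = 0.0404). Ucp2, an uncoupling-family carrier, rose after the burn from 0.585 to 2.79 (1.26, adjusted p = 0.0101) and was 1.19 in SF/HA-HEP-PAM (-0.76 against Alkali-burned, adjusted p = 0.0418), and Slc25a5, an ADP/ATP carrier, was higher in SF/HA-HEP-PAM than in Control (0.62).

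Mitochondrial mRNA and mitochondrial rRNA varied in their ratio between groups. Reads on the 13 mRNAs per read on the mitochondrial rRNAs were 0.545 to 0.980 for Control, with Alkali-burned at 1.06 to 1.66, SF/HA at 1.37 to 1.93 and SF/HA-HEP-PAM at 2.04 to 2.999. Without Mt-atp6, Mt-atp8 and Mt-co3 the ranges were 0.274 to 0.464, 0.468 to 0.530, 0.500 to 0.567 and 0.891 to 1.24. In both forms the SF/HA-HEP-PAM libraries lay above all others and Control below all others. The rRNA share itself differed, with a mean of 4.77% of Control reads, Alkali-burned at 2.69%, SF/HA at 3.44% and SF/HA-HEP-PAM at 1.56%. The mRNAs other than Mt-atp6, Mt-atp8 and Mt-co3 took 1.63% on average for Control and SF/HA-HEP-PAM alike, and all 13 took 3.40% and 3.92%. Without those genes, the higher ratio of SF/HA-HEP-PAM over Control thus came with less rRNA and not with more mRNA. The libraries were primed on poly(A), so these ratios compare what was captured.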
